A study of Mus musculus with 2 samples.

Results

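A set of 10 genes linked to B1 B cells was followed across the cells of the mouse omentum, namely *Bhlhe41*, *Zbtb32*, *Sox5*, *Fcrl5*, *Cdh17*, *Nid1*, *Adm*, *Lmo7*, *Diras2* and *Krt8*. They are 10 of the 19960 genes listed in the files, taken by symbol from a fixed list, and all 10 were found. *Lmo7* was listed by its Ensembl identifier (ENSMUSG00000033060) without a symbol and was named from the annotation. Most of the 10 were chosen by their high levels in the B1 cells of these data relative to other cells, and *Krt8* was already known to be low in the B1 cells of *Postn*-DTR mice. Their contrast between B1 cells and other cells is therefore a description and carries no test.

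The series holds 2 droplet single-cell RNA libraries of omental leukocytes, 1 of WT and 1 of *Postn*-DTR animals, each taken 5 days after diphtheria toxin (DT). *Postn*-DTR mice are heterozygous for a diphtheria toxin receptor knocked into the first coding exon of *Postn*, so that cells using the *Postn* promoter become sensitive to DT, and WT mice received the same toxin. All mice were on the C57BL/6 background, and the omenta of several mice were pooled for each library. There were no replicates: each group is 1 library, no test between groups was possible, and every interval given covers counting error only. Whether a difference between the libraries comes from the genotype, the animals or the library preparation cannot be told apart.

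B1 cells are self-renewing B cells of the body cavities that arise largely before and around birth and secrete much of the natural IgM. They carry a restricted antibody repertoire, in which the heavy-chain segments *Ighv11* and *Ighv12-3*, found in receptors for phosphatidylcholine, recur. B2 cells are the conventional recirculating B cells, which express IgD and CD23 (*Fcer2a*). In the omentum both live in milky spots, lymphoid clusters in the fat through which lymphocytes pass to and from the peritoneal cavity.

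*Bhlhe41* encodes a basic helix-loop-helix repressor needed for B1a cells that binds the E-box CACGTG, so the promoters of the 10 genes were read for this motif. RefSeq promoters of the GRCm38.p6 assembly, running from 250 bases before to 50 bases after a start site, were at hand for 9 of the 10 genes, with 2 start sites each for *Zbtb32* and *Lmo7*. The motif reads the same on both strands and was present in 1 of these 11 promoters, against 7.15% of all 32851 promoters of this length. The 1 match lay in the promoter of *Bhlhe41* itself, 153 bases before the start site. It is shown first, with the E-box in capitals, and is followed by the promoters of *Krt8* and *Adm*, whose levels differed most downward between the libraries and which hold no match. A match is only a run of letters in the window and is no evidence of binding.
*Bhlhe41* promoter, chr6:145865371-145865670, minus strand: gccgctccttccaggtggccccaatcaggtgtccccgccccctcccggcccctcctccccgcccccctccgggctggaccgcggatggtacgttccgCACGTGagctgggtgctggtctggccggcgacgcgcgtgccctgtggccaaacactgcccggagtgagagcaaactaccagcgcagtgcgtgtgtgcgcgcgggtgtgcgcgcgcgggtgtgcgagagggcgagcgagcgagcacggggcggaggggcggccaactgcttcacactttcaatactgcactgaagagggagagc
*Krt8* promoter, chr15:102004293-102004592, minus strand: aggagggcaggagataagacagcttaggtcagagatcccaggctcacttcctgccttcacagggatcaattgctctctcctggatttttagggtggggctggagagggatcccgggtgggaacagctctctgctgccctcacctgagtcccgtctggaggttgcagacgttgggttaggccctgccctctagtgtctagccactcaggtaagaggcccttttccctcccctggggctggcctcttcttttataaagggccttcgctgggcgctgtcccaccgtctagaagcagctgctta
*Adm* promoter, chr7:110627407-110627706, plus strand: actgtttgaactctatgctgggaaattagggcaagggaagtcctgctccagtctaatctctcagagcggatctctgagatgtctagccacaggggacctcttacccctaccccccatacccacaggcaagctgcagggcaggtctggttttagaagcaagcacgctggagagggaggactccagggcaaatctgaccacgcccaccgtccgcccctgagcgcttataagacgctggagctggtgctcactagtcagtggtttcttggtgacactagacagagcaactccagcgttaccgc

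The limits on detected genes and mitochondrial UMIs kept 8654 WT and 5727 *Postn*-DTR cells, with 80152228 and 81010680 UMIs. The libraries shared 65 barcodes. *Postn*, the targeted gene, held 54 UMIs in 48 stromal cells of WT and 9 UMIs in 26 stromal cells of *Postn*-DTR. A single cluster was called B1 B-like, with 1112 WT cells (12.8% of the library) and 484 *Postn*-DTR cells (8.45%), and the median cell held 8304.5 and 6628.5 UMIs. The name rests on 13 fixed B1 markers, none of them a member, all of which were at or above their mean over all B cell clusters, such as *Spn* (CD43), *Cd5*, *Cd9*, *Ctla4* and *Ighv11-2*. The B2 B-like class joined 2 clusters, of which the shallower one held 15.6% of the class in WT and 59.0% in *Postn*-DTR. Plasma-like cells numbered 602 and 2179, and T-like cells 3183 and 517. Levels below are mean UMIs of a gene per 10000 UMIs of a cell.

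The transcription factors of the list are *Bhlhe41*, *Zbtb32* and *Sox5*. *Bhlhe41* stood at 0.578 in WT B1 B-like cells and 0.452 in *Postn*-DTR B1 B-like cells. In B2 B-like cells it stood at 0.116 and 0.0704, and in plasma-like cells at 0.148 and 0.125. The plasma-like level was thus nearer to that of B2 than of B1 B-like cells, and T-like cells were lowest at 0.00355 and 0.00244. *Zbtb32*, a zinc finger repressor that limits antibody recall responses, was at 0.980 in WT and 0.612 in *Postn*-DTR B1 B-like cells. It was at 0.0466 and 0.0137 in B2 B-like cells and at 0.0162 and 0.00807 in plasma-like cells. T-like cells held more *Zbtb32* than plasma-like cells in both libraries, 0.0486 and 0.0385. *Sox5*, an HMG-box factor best known from cartilage, was at 0.587 and 0.504 in B1 B-like cells, against 0.107 and 0.115 in B2 B-like cells and 0.0473 and 0.0752 in plasma-like cells.

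The surface proteins *Fcrl5* and *Cdh17* had the higher mean in *Postn*-DTR. *Fcrl5*, an Fc receptor-like protein of innate-like B cells, was at 0.820 in WT and 1.24 in *Postn*-DTR B1 B-like cells. Its B2 B-like levels were 0.127 and 0.228, and its plasma-like levels 0.0454 and 0.0268. *Cdh17*, a cadherin otherwise known from gut epithelium, was at 0.229 and 0.564 in B1 B-like cells, against 0.0639 and 0.109 in B2 B-like cells and 0.00557 and 0.00432 in plasma-like cells. The mean levels of both genes were higher in *Postn*-DTR in B1 as well as in B2 B-like cells. For B2 B-like cells the interval of the log2 ratio from summed UMIs was -0.05 to 1.01 for *Fcrl5*. It was 0.10 to 1.68 for *Cdh17*, which was below the minimum of 100 UMIs there (48 and 21 UMIs). The B2 B-like class also mixed its 2 clusters differently in the libraries. *Cdh17* was at 0.0577 and 0.0649 in the deeper cluster and at 0.0976 and 0.140 in the shallower one. *Fcrl5* was at 0.120 and 0.246, and at 0.166 and 0.216.

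The secreted members had the lower mean in *Postn*-DTR B1 B-like cells. *Nid1*, the basement membrane protein nidogen-1, was at 0.931 in WT and 0.562 in *Postn*-DTR B1 B-like cells, against 0.103 and 0.0892 in B2 B-like cells. *Adm*, the precursor of the vasodilator adrenomedullin, was at 0.723 and 0.378 in B1 B-like cells, against 0.0219 and 0.0370 in B2 B-like cells (15 and 3 UMIs). *Adm* was unevenly spread, since 239 of 1112 WT B1 B-like cells held its 747 UMIs and the highest cell held 19. In *Postn*-DTR, 50 of 484 cells held its 110 UMIs.

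Of the intracellular members, *Lmo7*, a LIM-domain scaffold of cell junctions, was at 0.826 in WT and 0.486 in *Postn*-DTR B1 B-like cells. Its B2 B-like values were 0.0675 and 0.156, the second from 12 UMIs in 7 cells. *Lmo7* also kept a level in plasma-like cells of 0.101 and 0.0769. *Diras2*, a Ras-family GTPase, was at 0.344 and 0.382 in B1 B-like cells and at 0.0614 and 0.0199 in B2 B-like cells. *Krt8*, a keratin of simple epithelia that pairs with *Krt18*, was at 0.116 in WT and 0.00768 in *Postn*-DTR B1 B-like cells, from 123 UMIs in 75 cells and 3 UMIs in 3 cells. It was not detected in *Postn*-DTR B2 B-like cells, where 0 of 466 cells allow a share of up to 0.644%, and was at 0.00815 in WT B2 B-like cells.

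**Figure D1:**
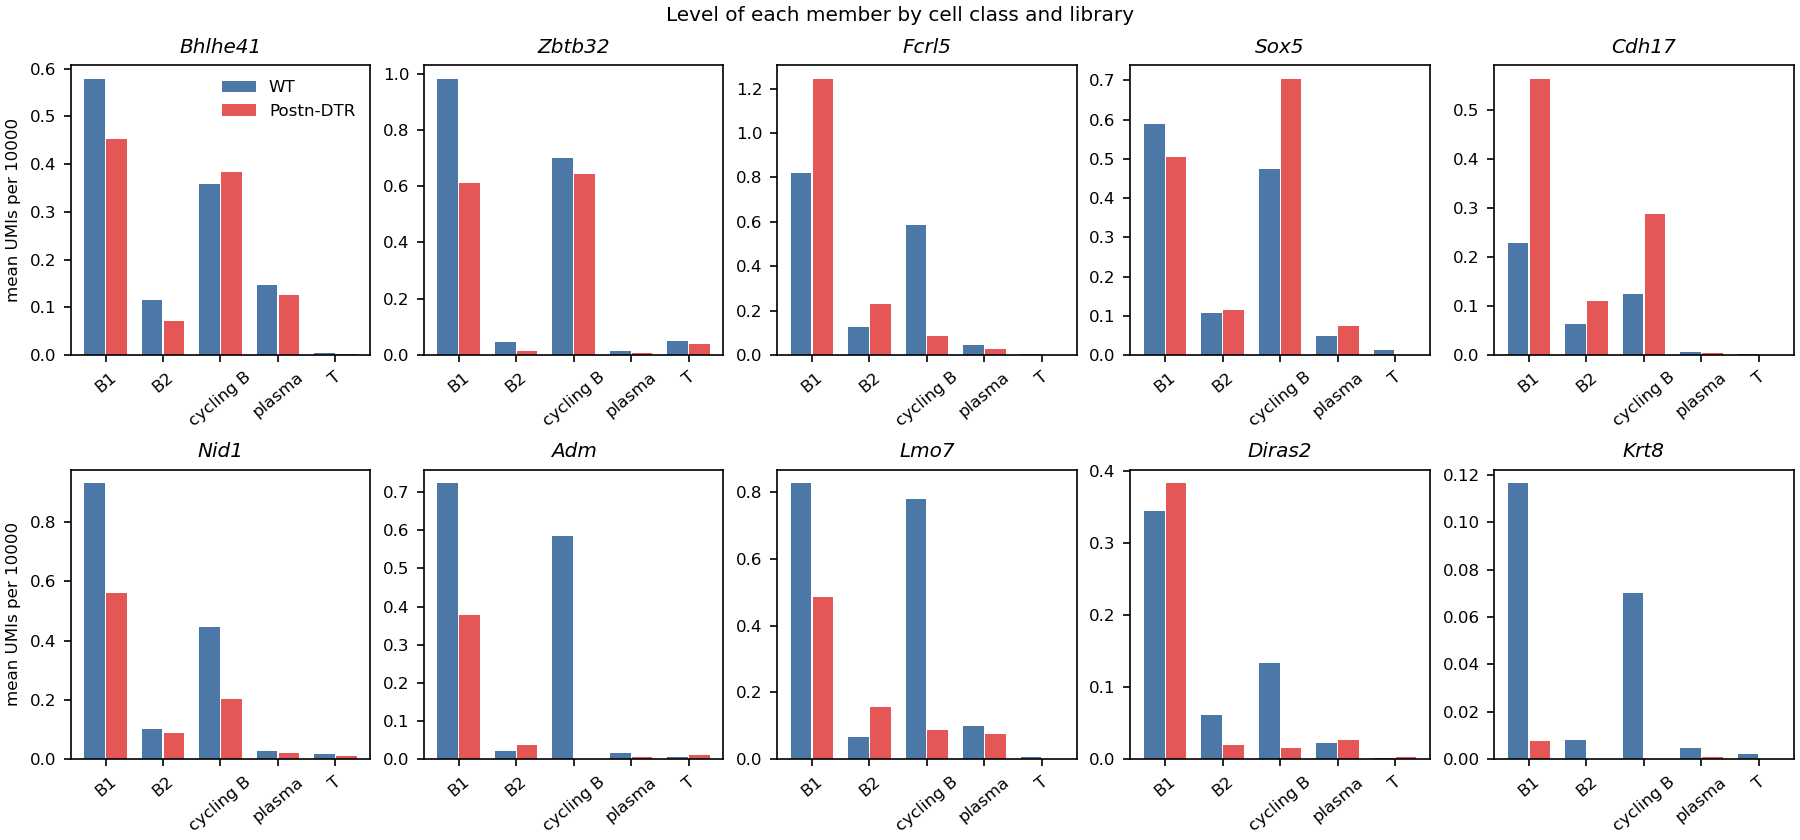
Mean UMIs per 10000 of each of the 10 genes (vertical axis, each panel with its own scale from 0) in B1 B-like, B2 B-like, cycling B-like, plasma-like and T-like cells of the WT (blue) and *Postn*-DTR (red) library, without error bars because each bar is 1 library. B1 B-like bars stand above those of B2 B-like, plasma-like and T-like cells for every gene, and the *Postn*-DTR bar is above the WT bar in B1 B-like cells for *Fcrl5*, *Cdh17* and *Diras2*. For *Sox5* and *Zbtb32* the *Postn*-DTR bar of cycling B-like cells, from 17 cells, is above that of B1 B-like cells.

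Against B2 B-like cells, all 10 members were higher in WT B1 B-like cells by 2-fold or more, where 3.24% of the 8559 genes with at least 100 UMIs were. In *Postn*-DTR, all 9 members that passed the UMI minimum were, against 3.09% of 5593 genes, and *Krt8* did not pass it. Nothing is read from these shares, because the same cells chose the members. The ratios ran from 3.59-fold for *Cdh17* to 33.0-fold for *Adm* in WT, and from 3.11-fold for *Lmo7* to 44.5-fold for *Zbtb32* in *Postn*-DTR, where only 3 *Zbtb32* UMIs were found in B2 B-like cells. The sizes depended on the class boundary. When B cells were split by a UMI of *Fcer2a* or *Ighd* in place of clusters, the log2 ratio of *Adm* in WT was 1.69 in place of 5.05, and that of *Zbtb32* was 2.14 in place of 4.40. In the cells without those UMIs all 10 members stayed higher in WT and the 9 tested ones in *Postn*-DTR. Within the B2 B-like class, the shallow cluster held the higher *Sox5* level, 0.423 against 0.0486 in WT and 0.164 against 0.0437 in *Postn*-DTR, and the higher *Lmo7* level, 0.319 against 0.0209 and 0.265 against 0.

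Most single B1 B-like cells showed few of the 10 genes at once. At full depth the median WT B1 B-like cell held a UMI of 3 members and the median *Postn*-DTR cell of 2, and 8.99% and 11.4% held none. To set classes of unequal depth side by side, each cell was thinned to 1000 UMIs. The share of B1 B-like cells with a UMI of at least 1 member was then 40.7% in WT (exact 95% interval 37.8 to 43.7) and 40.1% in *Postn*-DTR (35.7 to 44.6). It was 5.16% and 6.52% in B2 B-like cells, 3.16% and 3.96% in plasma-like cells, and 1.09% and 0.990% in T-like cells, which were planned as the background class. *Zbtb32* was seen in 18 of the 34 WT and 4 of the 5 *Postn*-DTR T-like cells with any member. For this gene T-like cells are therefore not taken as background. Cycling B-like cells came nearer to B1 B-like cells, at 26.7% of 105 cells in WT (18.5 to 36.2) and 35.3% of 17 cells in *Postn*-DTR (14.2 to 61.7). Unthinned, plasma-like cells reached 56.1% and 46.5%, at median depths of 29375.5 and 23804 UMIs. The intervals of the 2 libraries overlapped for any member in B1 B-like cells. At 1000 UMIs *Cdh17* was seen in 2.43% of WT (1.61 to 3.51) and 7.85% of *Postn*-DTR B1 B-like cells (5.62 to 10.6), without overlap of the intervals, and *Zbtb32* in 8.90% (7.29 to 10.7) and 6.40% (4.39 to 8.97), which overlapped. Unthinned these shares were 17.2% and 27.9% for *Cdh17* and 49.1% and 28.7% for *Zbtb32*. In T-like cells at 1000 UMIs they were 0.0319% and 0 for *Cdh17*, where 0 of 505 cells allow up to 0.594%, and 0.575% and 0.792% for *Zbtb32*.

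**Figure D2:**
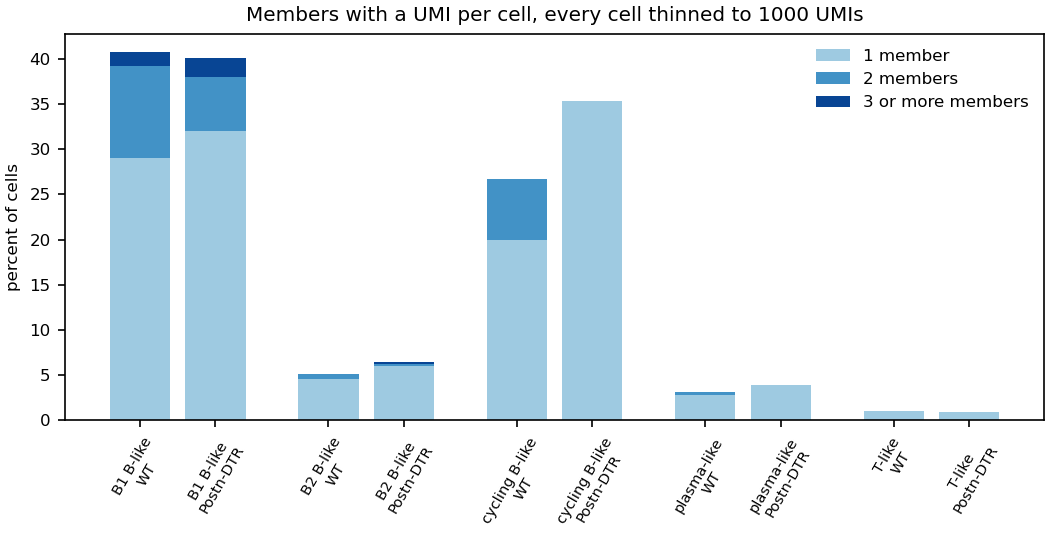
Percent of cells (vertical axis) with a UMI of 1, 2 or at least 3 of the 10 genes after every cell was thinned to 1000 UMIs, by class and library; cells under 1000 UMIs are left out. The B1 B-like bars reach 40.7% in WT and 40.1% in *Postn*-DTR, and the B2 B-like, plasma-like and T-like bars stay at or below 6.52%. The cycling B-like bars reach 26.7% in WT and 35.3% in *Postn*-DTR, the second from 17 cells.

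Within B1 B-like cells the members gave low correlations, which at counts this sparse do not show how closely they go together. Over the 45 pairs, the Pearson correlation across cells ran from -0.05 to 0.19 in WT, with a median of 0.06, and from -0.08 to 0.15 in *Postn*-DTR, with a median of 0.02. These cells share a library and differ in depth, and with counts this sparse the values are given as a description only. At full depth, cells with both genes outnumbered the product of the single shares for 45 of 45 pairs in WT and 33 of 45 in *Postn*-DTR. The median ratios were 1.23 and 1.16, and depth that differs between cells can raise them. At 1000 UMIs per cell, 167 pairings of members in WT cells were seen where the product of the single shares gave 142, a ratio of 1.17, and the ratio was 1.16 in *Postn*-DTR.

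Between the libraries the B1 B-like cells differed gene by gene. Past 2-fold, *Cdh17* was higher in *Postn*-DTR by 2.46-fold and *Krt8* was lower by 15.2-fold. This is 1 of 10 members higher where 1.71% of the 8012 genes with at least 100 UMIs were, and 1 of 10 lower where 1.57% of those genes were. Nothing is read from the second share, since *Krt8* was known to be low here and passed the UMI minimum through its 123 WT UMIs. On the log2 scale of mean levels *Cdh17* differed by 1.30 (interval from summed UMIs 0.93 to 1.49) and *Krt8* by -3.92 (-6.14 to -2.26, from 3 UMIs in *Postn*-DTR). *Fcrl5* was higher with a log2 ratio of 0.60 (0.32 to 0.66). *Adm* (-0.93, interval -1.55 to -0.96), *Lmo7* (-0.76, -1.34 to -0.83), *Nid1* (-0.73, -1.06 to -0.61) and *Zbtb32* (-0.68, -0.87 to -0.45) were lower. For *Adm* and *Lmo7* the sum over cells and the mean of cells differed enough that the mean lies outside the interval of the sum. *Sox5* (-0.22, -0.53 to -0.05) lay closer to 0. For *Bhlhe41* (-0.35, -0.49 to 0.01) and *Diras2* (0.15, -0.26 to 0.33) the interval included 0. In all, 7 members had a lower and 3 a higher mean level in *Postn*-DTR, with a median log2 ratio of -0.52 over the members against 0.01 over the 8012 genes. Nothing is read from this median. It includes *Krt8*, and most members were chosen by their level in B1 cells, of which 1112 were WT and 484 *Postn*-DTR. The sign of *Sox5* turned to 0.085 when cells were thinned to 1000 UMIs. On summed UMIs *Adm* and *Lmo7* were also past 2-fold, 4 members in all with *Krt8*, where 253 of the 8012 genes were. Nothing is read from this count either, since *Krt8* was known to be low.

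**Figure D3:**
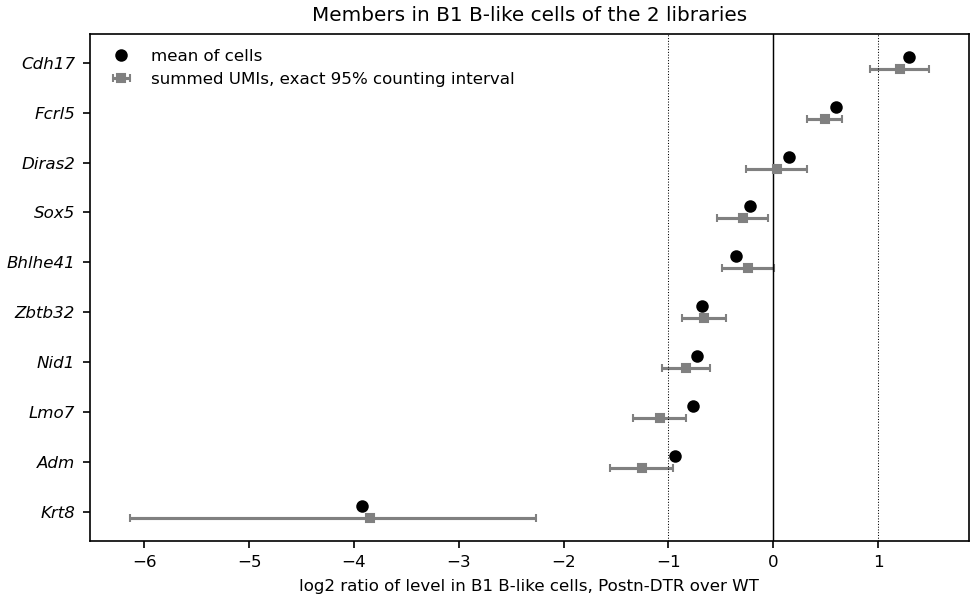
Log2 ratio of the level in B1 B-like cells, *Postn*-DTR over WT (horizontal axis), for each gene: black circles are ratios of the means over cells, grey squares are ratios of summed UMIs with exact 95% counting intervals, and dotted lines mark 2-fold. *Cdh17* at 1.30 and *Krt8* at -3.92 lie beyond the dotted lines on the mean scale.

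A finer clustering split the B1 B-like cells into 2, and the libraries differed in their shares. Of 1121 WT and 493 *Postn*-DTR cells named B1 B-like there, the cluster with the higher *S100a6* level held 55.0% of WT (52.1 to 58.0) and 38.9% of *Postn*-DTR cells (34.6 to 43.4). In this cluster *Zbtb32* was at 1.27 in WT, against 0.609 in the other one, and *Lmo7* at 1.13 against 0.439. Inside the high-*S100a6* cluster the log2 ratio between libraries was 1.23 for *Cdh17*, 0.55 for *Fcrl5*, -1.42 for *Adm*, -0.99 for *Lmo7* and -3.15 for *Krt8*. Inside the other one it was 1.44 for *Cdh17*, 0.74 for *Fcrl5*, -0.47 for *Adm* and -0.05 for *Lmo7*, and *Krt8* counted 0 UMIs in *Postn*-DTR against 17 in WT. *Cdh17*, *Fcrl5*, *Adm* and *Krt8* thus kept their direction in both clusters, whereas the difference of *Lmo7* was close to 0 in the second. *Sox5* changed sign, from -0.19 to 0.096, and *Diras2* went from 0.04 (interval -0.43 to 0.32) to 0.59 (0.13 to 1.20). This clustering includes members among its features.

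The heavy-chain V segment gave a split of the B1 B-like cells by genes that are no members and that were left out of the clustering features, although *Ighv11-1* and *Ighv11-2* were among the markers that named the cluster. The split was also one of depth, since cells with *Ighv11* or *Ighv12-3* had medians of 10173 UMIs in WT and 7375 in *Postn*-DTR, against 7861 and 6595 in cells with another segment. Of WT B1 B-like cells, 231 had a leading *Ighv11* or *Ighv12-3* segment and 787 another one, and of *Postn*-DTR cells 97 and 307. *Ighv11-2* was the most frequent leading segment in both, at 19.4% of WT and 19.3% of *Postn*-DTR cells with a leading segment. *Adm* was at 1.55 in WT cells with *Ighv11* or *Ighv12-3* and 0.512 in those with another segment. In *Postn*-DTR the same cells were at 1.11 and 0.170. The log2 ratio between the segments was 1.59 in WT (interval from summed UMIs 1.33 to 1.76) and 2.71 in *Postn*-DTR (1.84 to 3.097), so that *Adm* was higher in the *Ighv11* and *Ighv12-3* cells of both libraries. With every cell thinned to 1000 UMIs, *Adm* was seen in 11.7% of these cells (7.85 to 16.5) against 3.56% (2.38 to 5.10) in WT, and in 13.4% (7.33 to 21.8) against 0.977% (0.202 to 2.83) in *Postn*-DTR. The higher mean level held for each segment, with *Adm* at 1.53 in the 197 *Ighv11-2* cells and 1.66 in the 34 *Ighv12-3* cells of WT, and at 1.13 and 1.03 in *Postn*-DTR. The *Ighv12-3* values rest on 53 UMIs in 17 cells of WT and 12 UMIs in 4 of 19 cells of *Postn*-DTR. At 1000 UMIs the *Ighv12-3* share was 8.82% (1.86 to 23.7) in WT, overlapping the interval of the other segments. In *Postn*-DTR it was 21.1% (6.05 to 45.6), without overlap.

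*Krt8* followed the same split in WT, at 0.321 against 0.0643 (log2 ratio 2.32, interval 1.41 to 2.52), and *Ighv11-2* cells carried it at 0.365 against 0.0646 in *Ighv12-3* cells. *Bhlhe41* was higher in the *Ighv11* and *Ighv12-3* cells as 1 group, at 0.837 against 0.511 in WT and 0.787 against 0.391 in *Postn*-DTR. By segment, this was seen in the *Ighv11-2* cells, at 0.886 and 0.905, whereas the *Ighv12-3* cells were at 0.549 in WT and 0.303 in *Postn*-DTR, from 20 and 4 UMIs. For *Lmo7* the interval left out 0 in WT and included it in *Postn*-DTR, with log2 ratios of 0.995 (0.64 to 1.04) and 0.17 (-0.33 to 0.83), and the difference between these 2 ratios was not tested. *Nid1* gave intervals that included 0 in both libraries. *Sox5* took opposite directions, at 0.762 against 0.535 in WT and 0.270 against 0.563 in *Postn*-DTR. Within the *Ighv11* and *Ighv12-3* cells, *Krt8* counted 67 UMIs in the WT and 2 in the *Postn*-DTR library, and within the other cells 49 and 1, so its difference between the libraries was present on both sides of the split.

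**Figure D4:**
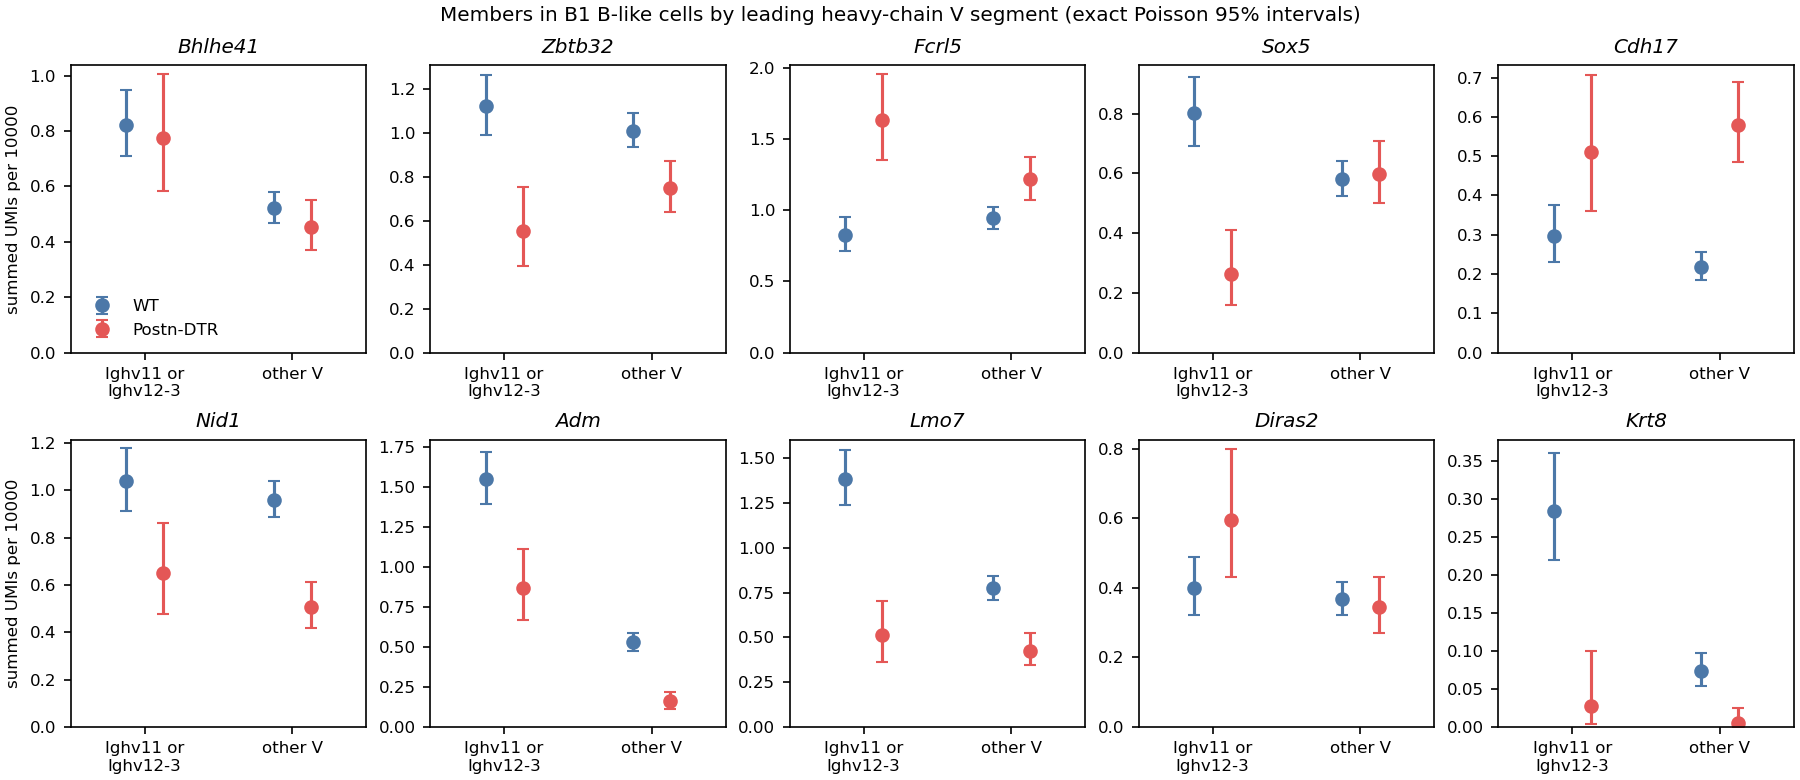
Summed UMIs per 10000 with exact Poisson 95% intervals (vertical axis, each panel from 0) of each gene in B1 B-like cells with a leading *Ighv11* or *Ighv12-3* segment and with another leading V segment, WT in blue and *Postn*-DTR in red. *Adm* and *Bhlhe41* stand higher, with both segments as 1 group, at *Ighv11* or *Ighv12-3* in both libraries, and *Krt8* does in WT.

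A *Cd5* UMI, which marks B1a cells, was seen in 152 of 1112 WT and 36 of 484 *Postn*-DTR B1 B-like cells. Whether the other cells lacked *Cd5* or it was missed at this depth was not tested. The cells with a *Cd5* UMI were also deeper, with medians of 10708 UMIs against 8030.5 in WT and 7582.5 against 6531 in *Postn*-DTR. At 1000 UMIs they held a mean of 0.730 members against 0.510 in WT, but 0.361 against 0.516 in *Postn*-DTR. At full depth the *Adm* level was higher in these cells in both libraries, at 1.32 against 0.628 in WT and 0.631 against 0.358 in *Postn*-DTR, with log2 ratios of 1.07 (interval from summed UMIs 0.61 to 1.09) and 0.82 (0.05 to 1.69). *Lmo7* was at 1.23 against 0.762 in WT and 0.671 against 0.471 in *Postn*-DTR, where its interval included 0 (-0.46 to 1.13). *Zbtb32* was nearly level, at 0.966 against 0.983 in WT and 0.592 against 0.613 in *Postn*-DTR.

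In plasma-like cells, the antibody-secreting cells that both B1 and B2 cells can become, *Bhlhe41* and *Lmo7* gave the most UMIs among the members, 285 and 187 in WT and 714 and 403 in *Postn*-DTR. *Lmo7* differed by the constant region the cell used. It was at 0.113 in the 503 *Ighm* cells and 0.0269 in the 83 *Ighg* cells of WT, and at 0.0885 in the 1865 *Ighm* cells and 0.00831 in the 305 *Ighg* cells of *Postn*-DTR. The log2 ratio of *Ighm* over *Ighg* cells was 2.07 in WT (interval from summed UMIs 0.40 to 2.09) and 3.41 in *Postn*-DTR (1.91 to 3.99). The WT value for *Ighg* rests on 14 UMIs, 7 of them in 1 cell. *Bhlhe41* did not differ by constant region beyond its intervals, which for WT were -0.50 to 0.46 and for *Postn*-DTR -0.37 to 0.25.

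*Sox5* was higher in *Ighg* cells of WT, at 0.149 against 0.0291 in *Ighm* cells, with 27 of 83 and 41 of 503 cells holding a UMI. In *Postn*-DTR it was at 0.140 and 0.0650, but on summed UMIs the log2 ratio of *Ighm* over *Ighg* was -0.32 with an interval of -0.78 to 0.17, and without the highest doublet scores -0.52 with an interval of -0.99 to -0.02. *Fcrl5* was higher in *Ighm* cells of *Postn*-DTR (log2 ratio 1.07, interval 0.25 to 2.17), and its interval in WT (-0.31 to 2.40) included 0. *Igha* cells numbered 16 and 9 and were too few to set beside these.

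**Figure D5:**
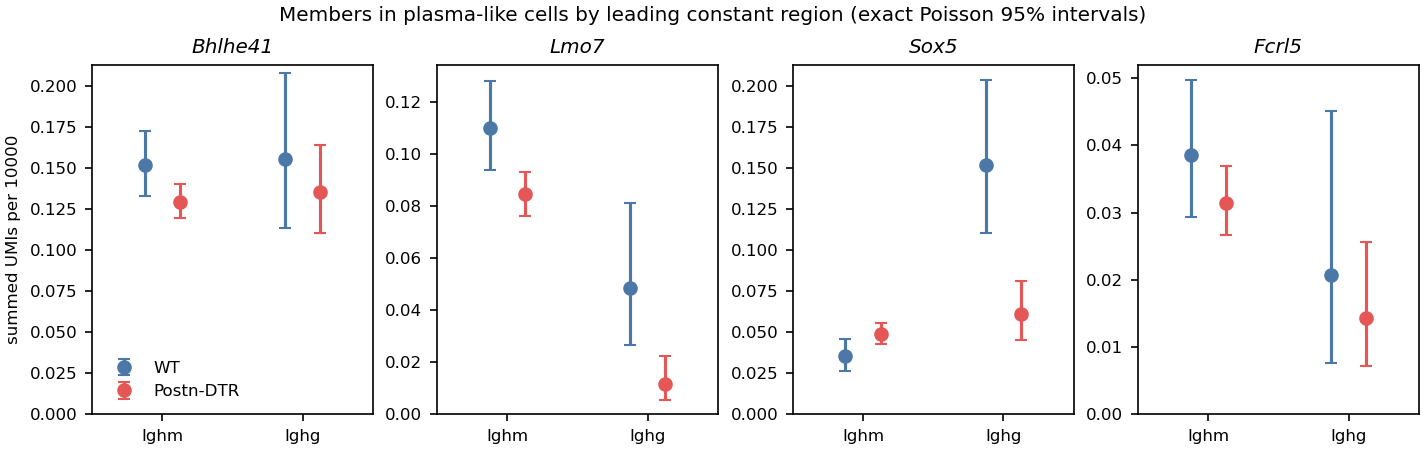
Summed UMIs per 10000 with exact Poisson 95% intervals (vertical axis, each panel from 0) of *Bhlhe41*, *Lmo7*, *Sox5* and *Fcrl5* in plasma-like cells whose leading constant region is *Ighm* or an *Ighg* gene, WT in blue and *Postn*-DTR in red. *Lmo7* stands higher in *Ighm* cells of both libraries and *Sox5* higher in *Ighg* cells of WT.

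Outside the lymphocytes, 3 members had a second source. *Krt8* was at 1.89 in the 48 stromal cells of WT and 0.722 in the 26 of *Postn*-DTR, and *Nid1* was at 2.21 and 1.01 there. *Adm* was at 0.420 and 0.609 in the same cells. Of all *Krt8* UMIs, 56.7% in WT and 59.1% in *Postn*-DTR lay in stromal cells, and 31.5% and 6.82% in B1 B-like cells. The summed level of 9 stromal and mesothelial markers in B1 B-like cells was 0.405 in WT, with 8 of 9 detected, and 0.285 in *Postn*-DTR, with 7 of 9, and *Msln* was at 0 in both. *Dcn* and *Col3a1* made up most of this sum, and both had the lower mean in *Postn*-DTR. Of the keratins, *Krt18* was at 0.0501 and 0.0413. *Krt19* was at 0.0140 and 0.0310, from 13 and 10 UMIs, and the interval of its log2 ratio (-0.21 to 2.44) included 0. The source of the *Krt8* UMIs in B1 B-like cells was not tested. In WT T-like cells this sum was higher, 0.617, while *Krt8* was at 0.00203, from 2 UMIs in 3183 cells. The 75 WT B1 B-like cells with a *Krt8* UMI held *Cd79a* at 32.5, against 36.4 in the others, and 1.33% of them were among the highest doublet scores, against 0.482%. They held *Krt18* at 0.162 against 0.0421, and *Adm* at 1.15 against 0.692.

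Cycling B-like cells, of which WT had 106 and *Postn*-DTR 17, had most members at full depth in WT. There they held *Zbtb32* at 0.700, *Lmo7* at 0.779, *Adm* at 0.584 and *Bhlhe41* at 0.358. In *Postn*-DTR *Zbtb32* was at 0.643, *Sox5* at 0.703 (27 UMIs in 9 cells) and *Bhlhe41* at 0.382. *Zbtb32* and *Sox5* were there above the *Postn*-DTR B1 B-like levels of 0.612 and 0.504. *Adm* had no UMI in 17 cells, which allows a share of up to 17.6%. However, 9 of the 17 cells were among the highest doublet scores and the median cell held 20700 UMIs.

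Of 24 other genes linked to B1 cells, 17 were higher by 2-fold or more in B1 than in B2 B-like cells of WT, with a median log2 ratio of 1.88, and 14 of the 20 that passed the UMI minimum were in *Postn*-DTR, with a median of 1.39. Of all genes tested, 3.24% in WT and 3.09% in *Postn*-DTR were. The list holds all of the 13 markers that named the cluster except *Ighv11-1* and *Ighv11-2*, so these counts were partly set by the naming. Between the libraries the median log2 ratio of the 24 genes in B1 B-like cells was -0.03, and 2 were lower past 2-fold, where 1.57% of 8012 genes were. The 2 lower genes were *Ahr*, the aryl hydrocarbon receptor (0.612 in WT and 0.264 in *Postn*-DTR), and *Lgals1*, the lectin galectin-1 (3.40 and 1.24). The genes with the highest levels were *S100a6*, a calcium-binding protein (22.1 and 23.5), *Plac8* (13.6 and 8.93) and the intermediate filament *Vim* (10.4 and 12.04). Of the 24, 13 were lower and 11 higher in *Postn*-DTR.

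Of 15 genes of B2 cells, 2 were lower past 2-fold in *Postn*-DTR B1 B-like cells, *Fcer2a* at 0.789 in WT and 0.130 in *Postn*-DTR, and the complement receptor *Cr2* at 0.576 and 0.180. Of all 8012 genes, 1.57% were lower past 2-fold in the same comparison. The median of the 15 genes was -0.02. The genes of this list with the highest levels were *Fcmr*, the Fc receptor for IgM (6.54 and 4.16), *Klf2*, a factor of lymphocyte quiescence and trafficking (6.01 and 9.12), and the transcription factor *Foxp1* (4.26 and 4.20). *Fcer2a* and *Cr2* were thus higher in the WT B1 B-like cells. In the gated B cells with no UMI of *Fcer2a* or *Ighd*, 652 in WT and 359 in *Postn*-DTR, *Cdh17* and *Krt8* were again the 2 members past 2-fold, where 322 of 7328 genes were. *Krt8* was known to be low. The gate also leaves out B1 B-like cells with an *Ighd* UMI, a gene at 1.28 and 1.14 in that class. Whether the *Fcer2a* and *Cr2* difference bears on the members was not tested. None of 12 regulators of B and plasma cells passed 2-fold between the libraries, with a median of 0.07. *Ebf1* was at 3.45 and 2.69, *Pou2af1* at 2.16 and 3.05 and *Irf8* at 1.82 and 2.47. Of the relatives of the members, 6 of 18 listed genes had 100 UMIs in B1 B-like cells and none was past 2-fold. *Fcrla*, of the *Fcrl5* family, was at 3.01 and 3.58, *Zbtb20*, of the *Zbtb32* family, at 2.23 and 1.77, and *Fcrl1* at 0.562 and 0.554.

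Across 10 classes in 2 libraries, 20 points that share their libraries, each member was compared with 13066 genes by the Pearson correlation of log2 levels, as a description. *Bhlhe41* was most like *A530040E14Rik* and *Iglc3* (r = 0.93 for both). *Fcrl5* was most like *Gm30382* (0.97) and *Sapcd1* (0.96), and *Cdh17* like *Sapcd1* (0.95) and *Anks1b* (0.91). *Sox5* was most like *Anks1b* and *Gm4610* (0.91 for both), and *Zbtb32* like *Slc34a1* (0.91) and *Ighv2-6-8* (0.90). *Adm* was most like *Slc34a1* (0.83) and *S100a5* (0.82), and *Krt8* like *AF067061* (0.97) and *Gcm2* (0.93). *Lmo7* was most like *2410003I16Rik* (0.93) and ENSMUSG00000079800 (0.92), and *Diras2* like *Gm30382* (0.90) and *Gm40634* (0.89). Among the members, *Fcrl5* and *Cdh17* were the closest pair (0.93).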

How the data were processed

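Omental cells taken 5 days after DT were profiled by droplet single-cell RNA sequencing, 1 library for WT and 1 for *Postn*-DTR, pooled from the mice of a group. The authors deposited, for each gene and cell, the natural log of 1 plus its UMIs per 10000 UMIs. The submitters' processing notes name Cell Ranger 6.0.0 and mm10, whereas the methods of the study name another Cell Ranger version, and the labels name the 5′ kit where the methods name the 3′ kit. UMIs were recovered from the steps of the values and were whole within 0.1 UMI for 99.97% of WT and 99.91% of *Postn*-DTR values. The files list 19960 genes, and 1060 symbols came from GENCODE.

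The planned tests assumed counts, so recovered UMIs took their place. Cells with 200 to 7500 genes and at most 25% mitochondrial UMIs were kept, as in the study. Both libraries were normalized with SCTransform (sctransform 0.4.2) and clustered in Seurat 5.3.0 without batch correction, from 30 components at resolution 0.8, with receptor segments left out of the 3000 variable features, which left 2692, 6 of them members. Clusters were named "X-like" from fixed markers, a name needing at least 3 markers and a score of 0.5. Thresholds of this scoring were chosen with the clusters in view.

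A level is the mean over cells of UMIs per 10000. Genes with at least 100 UMIs over both sides entered a ratio. With 1 library per group no test was run. Intervals are exact 95% intervals: Poisson for sums, conditional binomial for ratios of sums, Clopper-Pearson for shares. They cover counting error only. For a share of 0 the upper limit is that of 3 counts. Cells were thinned to 1000 UMIs to compare shares. A leading V segment needed 3 UMIs and 60% of the V UMIs of the cell. The ratio and its interval were tested on simulated counts in which all cells of a group shared the same profile. Variation between cells beyond counting was not simulated, so its effect on the intervals was not tested.

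The members and lists were chosen with earlier results of these data known. All 10 members are named, together with, of each list, the 3 genes with the highest level in B1 B-like cells and those past 2-fold between libraries, and the 2 genes most like each member (log2 of the level plus 0.01, classes of at least 50 cells per library). The genes most like *Nid1* are not reported here. Of the marker list of stromal cells, *Col3a1* and *Dcn* reached 100 UMIs in B1 B-like cells. *Col3a1* was at 0.103 in WT and 0.0496 in *Postn*-DTR, past 2-fold, and *Dcn* at 0.191 and 0.133. Promoters are from RefSeq (GRCm38.p6), and *Cdh17* was not matched. Doublets were scored with Scrublet (scanpy 1.11.5). Its automatic threshold marked 2 WT cells (0.0231%), which was taken as a failure, and 103 *Postn*-DTR cells (1.80%), so that an alternative chosen after seeing the data removed the highest 5% of scores of each library. Other alternatives changed the clustering, the gene minimum, the B cell gate, the scaling and the depth.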

Additional observations from a re-analysis of the deposited data

Results flagged for a closer look

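*Sox5* differed by the heavy-chain V segment in opposite directions in the 2 libraries. Its log2 ratio of B1 B-like cells with *Ighv11* or *Ighv12-3* over those with another segment was 0.51 in WT, from 189 and 389 UMIs, and -1.06 in *Postn*-DTR, from 19 and 132 UMIs. The counting intervals from summed UMIs, 0.21 to 0.72 and -1.96 to -0.49, lay on opposite sides of 0. With 1 library on each side the difference itself was not tested.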

How the results depend on the processing

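Between the libraries, 2 of the 10 genes (*Cdh17* and *Krt8*) were past 2-fold in B1 B-like cells under 8 of 11 alternatives, including clustering without the members, the finer clustering and the UMI gates. The number of all genes past 2-fold was less steady, 263 of 8012 as reported, 929 of 8012 after thinning to 1000 UMIs and 611 of 9998 with a minimum of 30 UMIs. Nothing is read from 2 of 10 against these backgrounds, since *Krt8* was known to be low here. The count was 4, with *Adm* and *Lmo7* added, when UMIs were summed over cells, with all UMIs, without receptor, mitochondrial and ribosomal protein genes, or with TMM factors. *Sox5* changed sign to 0.085 after thinning to 1000 UMIs, to 0.10 in the finer cluster with less *S100a6* and to 0.072 in cells with another V segment. The last 2 and the removal of the highest 5% of doublet scores were chosen after seeing the data. *Diras2* ranged from -0.08 to 0.77, and the other 8 genes kept their direction in every setting that gave a value. Removal of cells called by the automatic Scrublet threshold was not run, since it marked 2 WT cells. No paired analysis was possible because each group is 1 library. With 3 *Krt8* UMIs in *Postn*-DTR B1 B-like cells, depth limits the size of that ratio.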
